A study of Homo sapiens with 90 samples.

Results

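A set of 10 genes that the EWSR1-FLI1 fusion is known to activate in Ewing sarcoma (NR0B1, NKX2-2, STEAP1, GLI1, PRKCB, BCL11B, PPP1R1A, CAV1, DKK2 and SOX2) was followed in A673, a cell line from an Ewing sarcoma in which this fusion is expressed. The members were the probe sets annotated to exactly 1 of these 10 symbols. This gave 22 of the 54613 probe sets tested and 9 of the 19774 genes with a probe set, namely 6 probe sets for PRKCB, 4 for SOX2, 3 for BCL11B, 2 each for CAV1, DKK2 and PPP1R1A, and 1 each for NKX2-2, STEAP1 and GLI1. No probe set was annotated to NR0B1 alone, so NR0B1 was not analysed here. Cells were plated at 26000 per well and exposed for 24 h to fenbuconazole (a triazole fungicide), imazalil (an imidazole fungicide) or 2,4-D (2,4-dichlorophenoxyacetic acid, a phenoxy herbicide) at 9 concentrations from 0.001 to 10 µM, with 3 arrays per concentration. The vehicle group of each chemical was 3 arrays of cells given 0.2% DMSO, a concentration that the treated wells held as well. Every group was A673 itself, with no cell line lacking the fusion beside it, so nothing below measures activation by the fusion.

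EWSR1-FLI1 joins the activation domain of EWSR1 to the DNA-binding ETS domain of FLI1, a transcription factor. ETS factors bind a GGAA core, and the fusion also binds runs of GGAA repeats, from which it activates genes that are silent in most other tissues. The 10 genes have different roles. NR0B1 (a nuclear receptor that represses other receptors), NKX2-2 (a homeodomain factor), SOX2 (a pluripotency factor), BCL11B (a zinc finger factor of T cell development) and GLI1 (the effector of Hedgehog signalling) regulate transcription. PRKCB is a protein kinase C isoform and PPP1R1A is an inhibitor of protein phosphatase 1. STEAP1 is a membrane protein of the metalloreductase family, CAV1 is the main membrane protein of caveolae, and DKK2 is a secreted modulator of Wnt signalling.

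The values were log2 levels per probe set, normalized separately for the 30 columns of each chemical, so that a level was read within its own set and between sets differences from DMSO were compared. After centring, the DMSO columns that carry 1 replicate number in both the imazalil and the 2,4-D set correlated at 0.867 to 0.878, and those of different numbers at -0.150 to -0.0886. Both sets thus rest on 1 group of 3 DMSO arrays, and 87 distinct arrays remained of 90 columns. The labels call the DMSO controls common to the chemicals, but those of the fenbuconazole set correlated with the same numbers of the other sets at only 0.105 to 0.198, and were treated as separate arrays. The cells carried the defining markers of the line: CD99, the surface marker of Ewing sarcoma, lay at percentile 99.7, 99.6 and 99.6 of all probe sets in the DMSO arrays of the fenbuconazole, imazalil and 2,4-D sets, and FLI1, a partner in the fusion, at percentile 89.7, 90.5 and 90.2. The 6 MCF7 markers, 6 HepaRG markers and 3 of 4 blood cell markers that were measured, which stand for other cells, averaged 2.38 to 3.80 at 10 µM and 2.37 to 3.63 in DMSO on the log2 scale, beside DMSO medians of 2.79, 3.34 and 3.41 over all probe sets of the fenbuconazole, imazalil and 2,4-D sets. In DMSO the MCF7 list lay above these medians and both other lists lay below them.

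The RefSeq sequence (GRCh38.p14) of the 250 bases before the start site was at hand for 7 of the 10 genes, in 10 windows. Capitals mark each GGAA core and its reverse complement TTCC. The windows of 3 genes are printed, that of CAV1 because it and its overlapping neighbour alone among the members held GGAAGGAA on either strand, that of SOX2 because this gene moved with CAV1 across arrays (given further on), and that of STEAP1 because a core in each orientation abuts there.
CAV1, start site 1 (chr7:116524759-116525008, plus strand): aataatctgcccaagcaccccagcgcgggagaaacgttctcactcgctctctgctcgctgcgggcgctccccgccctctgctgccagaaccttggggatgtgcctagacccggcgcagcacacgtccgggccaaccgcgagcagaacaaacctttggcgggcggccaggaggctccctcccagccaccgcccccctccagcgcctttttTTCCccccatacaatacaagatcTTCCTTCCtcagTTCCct
SOX2 (chr3:181711675-181711924, plus strand): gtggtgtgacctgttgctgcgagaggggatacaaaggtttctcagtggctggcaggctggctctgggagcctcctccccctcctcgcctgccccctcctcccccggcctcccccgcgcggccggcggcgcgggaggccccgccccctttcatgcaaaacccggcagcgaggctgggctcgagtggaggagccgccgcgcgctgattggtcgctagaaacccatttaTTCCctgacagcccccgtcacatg
STEAP1 (chr7:90154219-90154468, plus strand): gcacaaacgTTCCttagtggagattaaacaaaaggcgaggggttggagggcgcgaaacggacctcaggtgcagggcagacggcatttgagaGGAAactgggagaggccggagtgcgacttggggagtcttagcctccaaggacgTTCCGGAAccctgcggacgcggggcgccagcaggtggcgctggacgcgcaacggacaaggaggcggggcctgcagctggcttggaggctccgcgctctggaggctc
The CAV1 window of start site 1 held 4 cores on both strands together, with TTCCTTCC near its end. That of start site 2, which overlaps it, held 5 cores with the same repeat, and that of start site 3 held 0 cores. The STEAP1 window held 4 cores and the SOX2 window 1. GGAAGGAA was present on either strand in 3.06% of all 35116 RefSeq windows of 250 bases, and the GGAA core alone in 92.7% of them, with a median of 3 cores per window. The windows of PRKCB and BCL11B held no core, those of NKX2-2 held 1 and 0, and that of NR0B1 held 5. A match describes these letters only, and GLI1, PPP1R1A and DKK2 had no window at hand. Repeats farther from the start site lay outside the windows and were not searched for.

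In DMSO most target genes had a bright probe set. Each gene is described by its lead probe set, the one with the highest mean over all columns. Choosing the brightest raises a percentile among all probe sets, and the leads were not ranked against the leads of all genes. Of the 9 lead probe sets, 8 lay above the 90th percentile of all probe sets in each of the 3 sets, and GLI1 lay at percentile 65.8, 68.3 and 68.0. In the fenbuconazole set the DMSO level averaged 12.42 ± 0.15 for CAV1, 11.42 ± 0.01 for STEAP1, 9.27 ± 0.10 for PRKCB and 3.83 ± 0.14 for GLI1 (log2, SD, n = 3). These levels depend on the probes as well as on the transcript, so the genes are not ranked by them. Over all 22 probe sets, 11 lay above the 90th and 17 above the 75th percentile in each set, while the second probe set of DKK2 (224199_PM_at) lay at percentile 23.5 to 48.6 and SOX2 214178_PM_s_at at percentile 30.1 to 51.8. The spread between arrays of 1 group lay below the median of all probe sets for most lead probe sets. The leads were chosen as the brightest, and their spread was not compared with that of equally bright probe sets. In the fenbuconazole set the other probe sets of these genes had a residual SD from 0.0615 (CAV1 203065_PM_s_at) to 0.361 (BCL11B 224310_PM_s_at). The residual SD of the lead probe sets had a median of 0.111, 0.0735 and 0.0763 in the fenbuconazole, imazalil and 2,4-D sets, against 0.162, 0.148 and 0.146 over all probe sets, and GLI1 had the widest in each set (0.206, 0.201 and 0.170). Since the cells were measured in bulk, fewer cells with a transcript and less of it per cell cannot be told apart in any of these values.

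The main question was whether the targets differed from DMSO at 10 µM, the highest concentration. None of the 22 probe sets passed in any of the 3 chemicals (limma, Benjamini-Hochberg over all probe sets), and 0% of all probe sets did in each contrast. At an unadjusted p under 0.05 the counts were 0 of 22 for fenbuconazole, 2 of 22 for imazalil and 0 of 22 for 2,4-D, against 7.00%, 4.75% and 3.85% of all probe sets. The median difference of the 9 lead probe sets was 0.03, 0.03 and -0.02 for fenbuconazole, imazalil and 2,4-D, beside -0.00, 0.00 and -0.01 for the lead probe sets of all genes.

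Among the transcription factors, NKX2-2 and GLI1 at 10 µM imazalil were the pair with an unadjusted p under 0.05. NKX2-2 read 9.49, 9.35 and 9.38 at 10 µM imazalil, against 9.27, 9.18 and 9.27 in DMSO, a difference of 0.16 ± 0.08 (SE) with an adjusted p of 1.00 in limma. Its arrays at 10 µM all lay above those in DMSO. For NKX2-2 the values were 8.63, 8.57 and 8.70 at 10 µM fenbuconazole, against 8.43, 8.46 and 8.61 in DMSO, and 9.33, 9.24 and 9.47 at 10 µM 2,4-D, against 9.35, 9.27 and 9.40 in DMSO. The groups overlapped in both, with differences of 0.13 ± 0.09 and 0.00 ± 0.07 (SE). GLI1 read 4.86, 5.19 and 4.70 at 10 µM imazalil, against 5.28, 4.95 and 5.55 in DMSO, a difference of -0.34 ± 0.15 (SE) with an adjusted p of 1.00 in limma. The second treated array lay above the lowest DMSO array. GLI1 read 3.70, 3.67 and 3.87 at 10 µM fenbuconazole, against 3.68, 3.96 and 3.86 in DMSO, and 5.44, 5.53 and 5.20 at 10 µM 2,4-D, against 5.32, 5.08 and 5.53 in DMSO. The groups overlapped in both.

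BCL11B had the largest difference of the 9 lead probe sets at 10 µM fenbuconazole. It read 9.45, 9.13 and 9.51 there, against 9.14, 9.20 and 8.94 in DMSO, a difference of 0.27 ± 0.14 (SE, adjusted p = 0.737 in limma). The second array was the low one of its group and fell within the DMSO values. The other BCL11B probe sets differed by 0.13 (219528_PM_s_at) and -0.18 (224310_PM_s_at), so the probe sets of this gene did not share a direction. At 10 µM imazalil the lead probe set of BCL11B read 9.93, 9.80 and 9.83, against 9.76, 9.95 and 9.76 in DMSO, and at 10 µM 2,4-D 9.92, 9.85 and 9.90, against 9.87, 10.08 and 9.88 in DMSO. SOX2 read 8.76, 8.76 and 8.69 at 10 µM fenbuconazole, against 8.70, 8.75 and 8.79 in DMSO. The SOX2 values were 9.60, 9.47 and 9.30 at 10 µM imazalil, against 9.44, 9.53 and 9.49 in DMSO, and 9.45, 9.66 and 9.49 at 10 µM 2,4-D, against 9.49, 9.60 and 9.61 in DMSO. Treated and DMSO arrays overlapped for SOX2 in all 3 chemicals, with differences of -0.01, -0.03 and -0.04.

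The lead probe sets of PRKCB and PPP1R1A, which act on protein phosphorylation, differed from DMSO by 0.07 or less in either direction. PRKCB read 9.40, 9.21 and 9.06 at 10 µM fenbuconazole, against 9.35, 9.16 and 9.31 in DMSO. PRKCB also read 10.12, 10.09 and 10.17 at 10 µM imazalil, against 10.11, 9.98 and 10.08 in DMSO, and 10.19, 10.16 and 10.10 at 10 µM 2,4-D, against 10.21, 10.00 and 10.09 in DMSO. The differences of -0.05, 0.07 and 0.05 were each smaller than their SE of 0.10, 0.07 and 0.07. PPP1R1A read 8.95, 8.88 and 8.78 at 10 µM fenbuconazole, against 8.92, 8.85 and 8.76 in DMSO. Its values were 9.41, 9.25 and 9.24 at 10 µM imazalil, against 9.24, 9.20 and 9.31 in DMSO, and 9.37, 9.18 and 9.37 at 10 µM 2,4-D, against 9.30, 9.28 and 9.40 in DMSO. The groups overlapped for both lead probe sets in every chemical. Other PRKCB probe sets differed more at 10 µM fenbuconazole, 230437_PM_s_at by 0.37, 227817_PM_at by 0.27 and 227824_PM_at by -0.25, and 227817_PM_at by 0.21 at 10 µM imazalil. PPP1R1A 235129_PM_at differed by 0.11 at 10 µM imazalil and by -0.11 at 10 µM 2,4-D, and none of these passed.

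Of the membrane and secreted products, STEAP1 alone had treated arrays clear of DMSO. CAV1 read 12.60, 12.35 and 12.39 at 10 µM fenbuconazole, against 12.46, 12.26 and 12.54 in DMSO. At 10 µM imazalil CAV1 read 12.95, 12.74 and 12.91, against 12.81, 12.83 and 12.84 in DMSO, and at 10 µM 2,4-D 12.87, 12.84 and 12.88, against 12.78, 12.86 and 12.88 in DMSO. The differences were 0.03, 0.04 and 0.02, with 95% intervals that lay between -0.18 and 0.24. STEAP1 read 11.58, 11.56 and 11.46 at 10 µM fenbuconazole, against 11.42, 11.40 and 11.43 in DMSO, a difference of 0.12 ± 0.08 (SE, adjusted p = 0.826 in limma). All 3 treated arrays lay above all 3 DMSO arrays there, while STEAP1 differed by -0.04 at 10 µM imazalil and by -0.05 at 10 µM 2,4-D. DKK2 read 9.13, 8.90 and 8.95 at 10 µM fenbuconazole, against 9.16, 8.96 and 9.39 in DMSO, and 10.13, 9.94 and 10.12 at 10 µM imazalil, against 10.17, 10.12 and 10.48 in DMSO. The differences were -0.18 ± 0.13 and -0.19 ± 0.10 (SE) and the groups overlapped in both, the third DMSO array being the high one. At 10 µM 2,4-D DKK2 read 10.13, 10.36 and 10.26, against 10.24, 10.18 and 10.52 in DMSO.

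**Figure D1:**
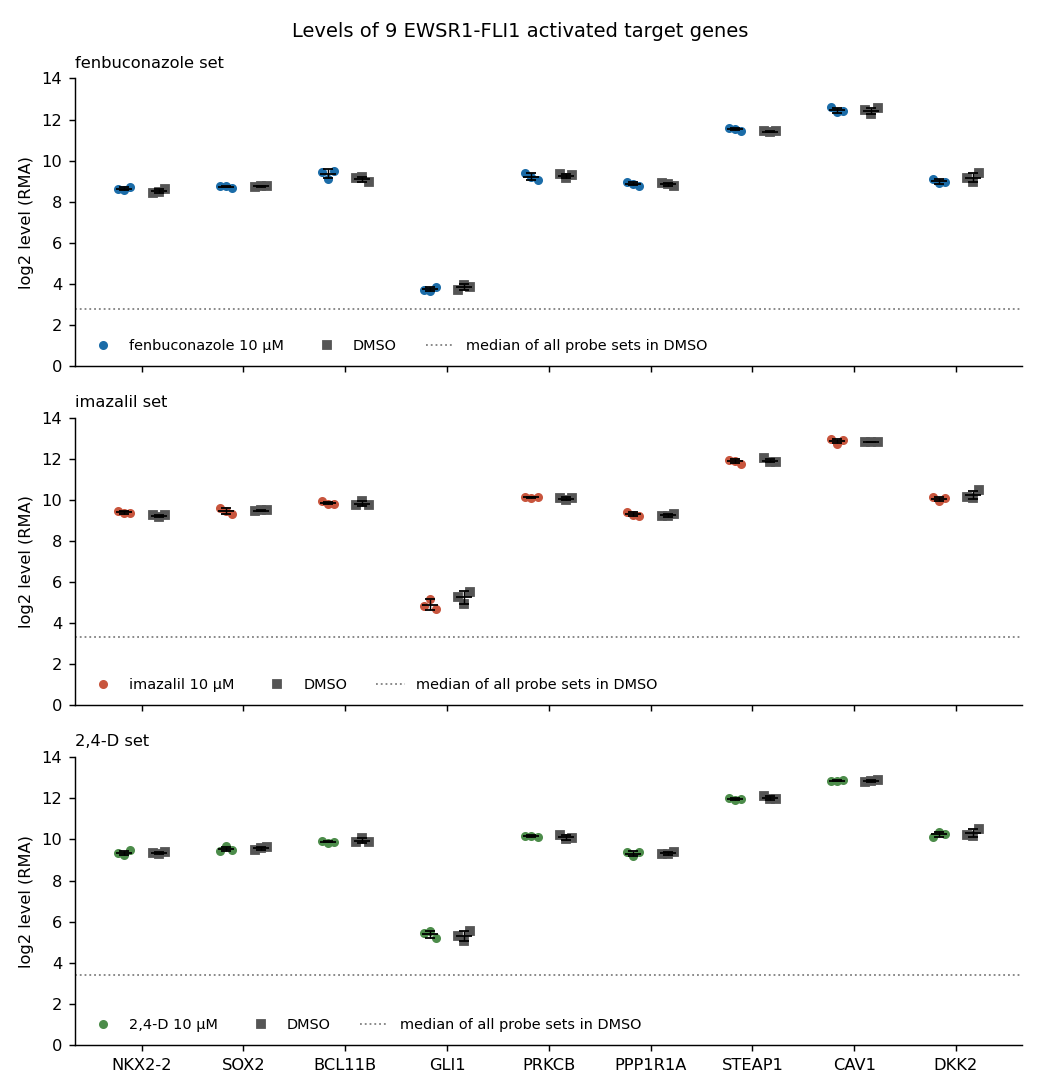
Log2 level (RMA) of the lead probe set of 9 target genes in each array, with 10 µM of the chemical (coloured circles) left of DMSO (grey squares), bars giving mean and SD of 3 arrays and a dotted line the median of all probe sets in DMSO. STEAP1 at 10 µM fenbuconazole and NKX2-2 at 10 µM imazalil lie clear of their DMSO arrays, with mean differences of 0.12 and 0.16, and GLI1 stands nearest to the median line.

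Counted over all 22 probe sets, treated and DMSO arrays did not overlap for 1 that was higher and 1 that was lower at 10 µM fenbuconazole, for 1 that was higher and 0 that were lower at 10 µM imazalil, and for 0 at 10 µM 2,4-D. The shares of all probe sets without overlap were 5.39% higher and 5.76% lower for fenbuconazole, 4.31% and 3.66% for imazalil, and 3.22% and 3.80% for 2,4-D. The members' counts were thus near what all probe sets gave. The 95% intervals of the lead differences spanned -0.44 to 0.56 for fenbuconazole, -0.66 to 0.32 for imazalil and -0.26 to 0.35 for 2,4-D, the widest being those of GLI1, BCL11B and DKK2. The other 13 probe sets of these genes did not pass either, and 19 of their 39 differences at 10 µM had the opposite sign to the lead probe set of the same gene.

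**Figure D2:**
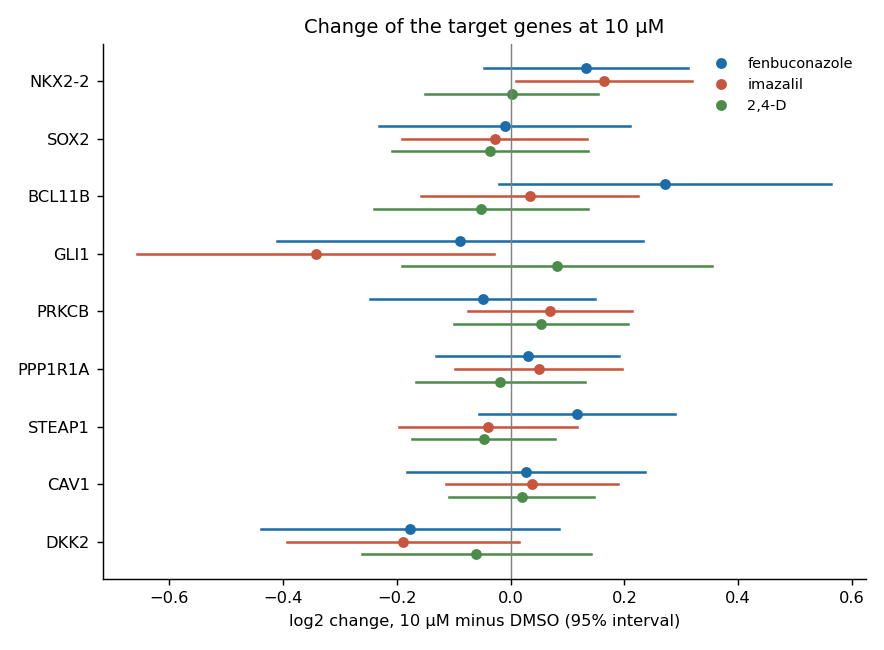
Log2 level at 10 µM minus DMSO (horizontal axis) with its 95% interval, for the lead probe set of 9 genes and 3 chemicals. Only the intervals of GLI1 (-0.66 to -0.03) and NKX2-2 (0.01 to 0.32) under imazalil leave out 0 before adjustment.

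Lower concentrations were read in the same way. In the 27 contrasts against DMSO, with 198 member tests per chemical, 0 passed, beside 1 of the 1474551 tests over all probe sets. At an unadjusted p under 0.05 there were 12 tests for fenbuconazole (6.06%, against 6.58% over all probe sets), 5 for imazalil (2.53%, against 4.53%) and 0 for 2,4-D (against 4.30%). The smallest adjusted p was 0.357, for BCL11B at 0.03 µM fenbuconazole. BCL11B read 9.70, 9.34 and 9.56 there, against 9.14, 9.20 and 8.94 in DMSO, a difference of 0.44 ± 0.14 (SE). The groups did not overlap there, as for 4 of 22 probe sets that were higher and 3 that were lower at 0.03 µM (5.78% and 6.43% of all probe sets), whereas at the neighbouring 0.01 µM the lead probe set of BCL11B differed from DMSO by -0.00. Of the other BCL11B probe sets at 0.03 µM, 219528_PM_s_at differed by 0.11 and 224310_PM_s_at by -0.27. GLI1 read 3.57, 3.35 and 3.57 at 0.03 µM fenbuconazole, against 3.68, 3.96 and 3.86 in DMSO, a difference of -0.34 ± 0.16 (SE), and 4.16, 4.10 and 3.95 at 0.001 µM. The mean of GLI1 thus swung by 0.58 between concentrations with no order along them.

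The mean of PPP1R1A along the fenbuconazole concentrations was 8.84 in DMSO, 8.76 at 0.001 µM, 8.75 at 0.003 µM, 8.73 at 0.01 µM, 8.70 at 0.03 µM, 8.72 at 0.1 µM, 8.63 at 0.3 µM, 8.66 at 1 µM, 8.82 at 3 µM and 8.87 at 10 µM. Its arrays read 8.60, 8.64 and 8.66 at 0.3 µM and 8.67, 8.69 and 8.62 at 1 µM, against 8.92, 8.85 and 8.76 in DMSO, with differences of -0.21 ± 0.08 and -0.18 ± 0.08 (SE, adjusted p = 0.564 and 0.874 in limma). All 9 comparisons use the same 3 DMSO arrays, and the F test over them gave an adjusted p of 1.00 in limma. The second PPP1R1A probe set, 235129_PM_at, differed by -0.12 and -0.11 at these concentrations. With imazalil the lead probe set of PPP1R1A differed from DMSO by -0.10 to 0.05 over the 9 concentrations, and with 2,4-D by -0.10 to -0.00.

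**Figure D3:**
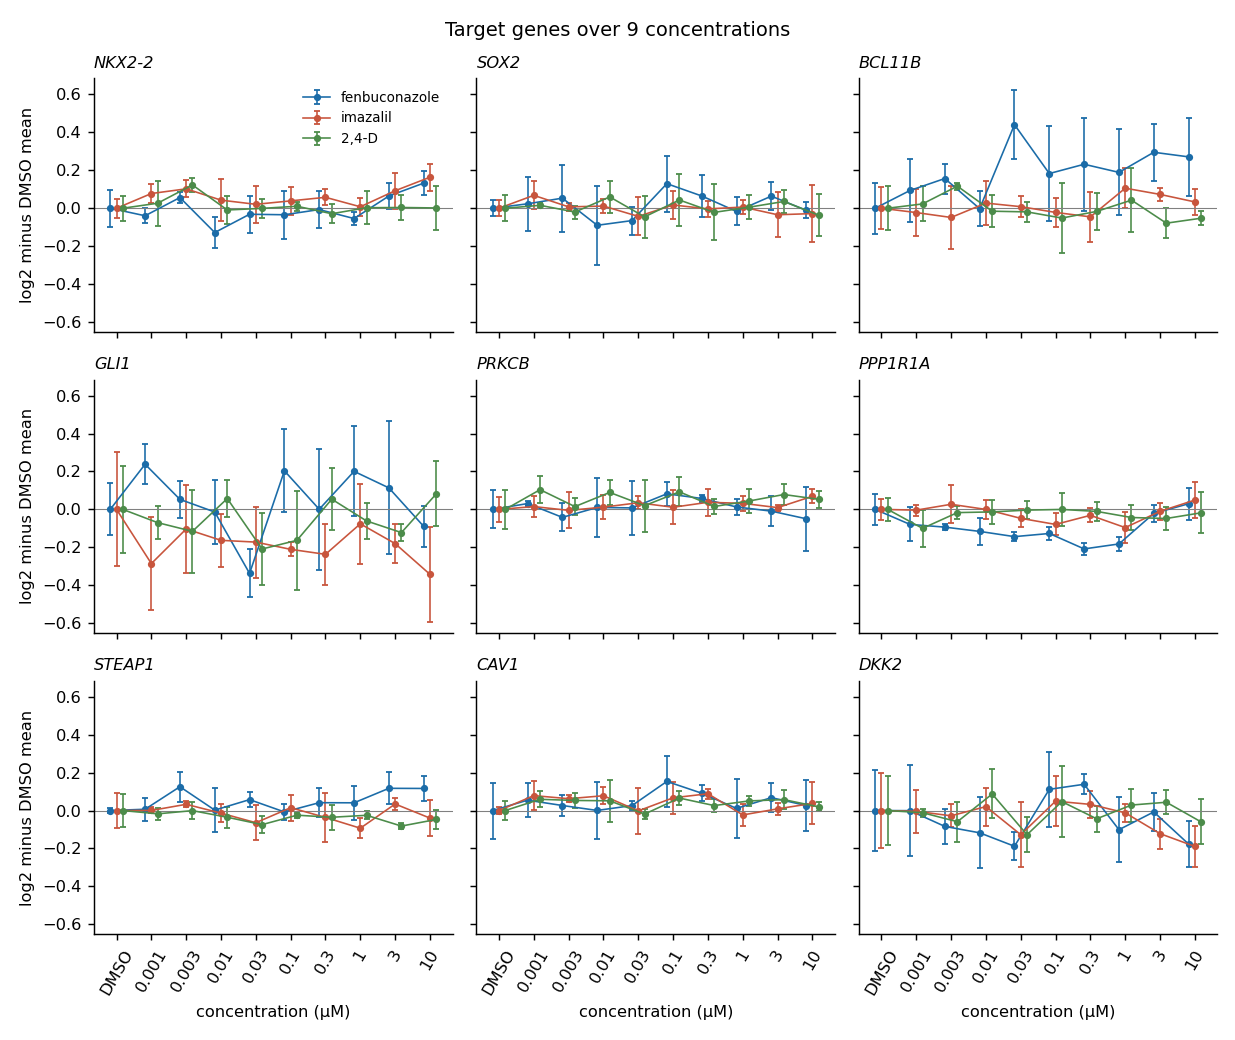
Mean log2 level minus the DMSO mean of the set (vertical axis, bars are the SD of 3 arrays) over DMSO and 9 concentrations in µM, for 9 target genes and 3 chemicals. BCL11B under fenbuconazole stands highest at 0.03 µM (0.44), GLI1 has the widest swings, and the CAV1 and PRKCB lines stay near 0.

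Across all 9 concentrations together, 0 of 22 probe sets passed the moderated F test in any chemical (0% of all probe sets in each), with 1, 1 and 0 at an unadjusted p under 0.05 for fenbuconazole, imazalil and 2,4-D, against 4.73%, 3.38% and 3.77% of all probe sets. The slope per 10-fold concentration, fitted on the 27 treated arrays of a set, passed for 0 of 22 in each chemical, against 0%, 0.00183% and 0% of all probe sets, and 0, 1 and 1 had an unadjusted p under 0.05, against 4.30%, 4.92% and 3.67%. Lead slopes lay between -0.01 and 0.04 for fenbuconazole, -0.03 and 0.02 for imazalil and -0.03 and 0.02 for 2,4-D. For fenbuconazole 19 of the 22 slopes were above 0, where 50.2% of all probe sets were, and for imazalil and 2,4-D 8 and 10 of 22 were. Probe sets of 1 gene are not independent, and of the 9 lead probe sets 6 had a slope above 0 with fenbuconazole.

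The chemicals were compared with each other at the matched 10 µM, after subtraction of their own DMSO means, in 3 pairs. None of the 22 probe sets passed in any pair, with 0.00183%, 0% and 0% of all probe sets called for fenbuconazole minus imazalil, imazalil minus 2,4-D and fenbuconazole minus 2,4-D, and the smallest adjusted p over probe sets was 1.00, 1.00 and 0.973. Adjusted over the 3 pairs as well, it was 1.00 throughout. An unadjusted p under 0.05 was found for 0, 0 and 1 of 22, against 4.56%, 0.859% and 5.06% of all probe sets. Fenbuconazole and imazalil both carry an azole ring, a triazole in fenbuconazole and an imidazole in imazalil, while 2,4-D is a chlorinated phenoxyacetic acid with no azole. Between the azoles, the BCL11B response differed by 0.24, with an interval from -0.08 to 0.55, that of STEAP1 by 0.16, from -0.02 to 0.34, and that of NKX2-2 by -0.03, from -0.23 to 0.17. Against 2,4-D, the BCL11B response was higher with fenbuconazole by 0.32 (0.01 to 0.64, adjusted p = 0.973 in limma), and the GLI1 response with imazalil differed by -0.42 (-0.86 to 0.01, adjusted p = 1.00). The imazalil and 2,4-D values share their DMSO arrays, which the fit counted as separate. The intervals of this pair are thus too wide and its p-values too large. Its share of 0.859% is too low for the same reason, and whether the GLI1 interval holds 0 is left unsettled.

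The arrays of a group carry replicate numbers. The methods call replicates independent experiments, each on its own batch of cells. Neither the methods nor the labels tie a number to 1 culture across groups. The numbers follow the run numbers of the arrays, so that culture batch and array run cannot be told apart. Some PRKCB, BCL11B and SOX2 probe sets differed between these numbers. With concentration in the model, 1 of 22 probe sets passed in the fenbuconazole set (0.837% of all probe sets), 2 of 22 in the imazalil set (2.13%) and 2 of 22 in the 2,4-D set (3.63%), and 6, 7 and 8 of 22 had an unadjusted p under 0.05, against 11.4%, 16.7% and 18.9% of all probe sets. The counts were 2, 4 and 7 for fenbuconazole, imazalil and 2,4-D with dim probe sets left out, which kept 20 of the 22 probe sets, and also 2, 4 and 7 with the trend and robust settings of eBayes. In the main fit no lead probe set passed. Of the 5 calls 3 were PRKCB probe sets, and the others were BCL11B 224310_PM_s_at and SOX2 213722_PM_at. PRKCB 227817_PM_at in the fenbuconazole set ranged from 7.03 to 7.34 with a median of 7.14 over the 10 arrays numbered 2, against 7.20 to 7.71 with a median of 7.46 over those numbered 1 and 7.08 to 7.63 with a median of 7.38 over those numbered 3. Number 2 was lowest in 10 of 10 groups, with a difference of -0.28 between numbers 2 and 1 (adjusted p = 0.0124 in limma).

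PRKCB 227824_PM_at in the 2,4-D set ranged from 6.58 to 7.09 with a median of 6.94 over the arrays numbered 2, against 6.86 to 7.17 with a median of 7.11 over those numbered 1. Number 2 was lowest in 10 of 10 groups there, with a difference of -0.20 between numbers 2 and 1 (adjusted p = 0.0202 in limma). In the fenbuconazole set 227824_PM_at went the other way. Number 2 was higher than number 1 by 0.14 and lowest in 3 of 10 groups. In the imazalil set, PRKCB 228795_PM_at differed by -0.20 (adjusted p = 0.0148) and BCL11B 224310_PM_s_at by -0.25 (adjusted p = 0.0134) between numbers 2 and 1. SOX2 213722_PM_at ran the other way in the 2,4-D set, by 0.26 (adjusted p = 0.0392). A further PRKCB probe set, 209685_PM_s_at, was lowest in number 2 in 9 of 10 groups of every set, with adjusted p of 0.0855, 0.0864 and 0.0552 for fenbuconazole, imazalil and 2,4-D. Which PRKCB probe set passed thus differed between sets, and the imazalil and 2,4-D sets share their DMSO arrays. The calls were few and moved with the arrays used. Without number 1 the counts were 0, 1 and 0 of 22 for fenbuconazole, imazalil and 2,4-D, without number 2 they were 0, 0 and 0, and without number 3 they were 1, 0 and 0.

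**Figure D4:**
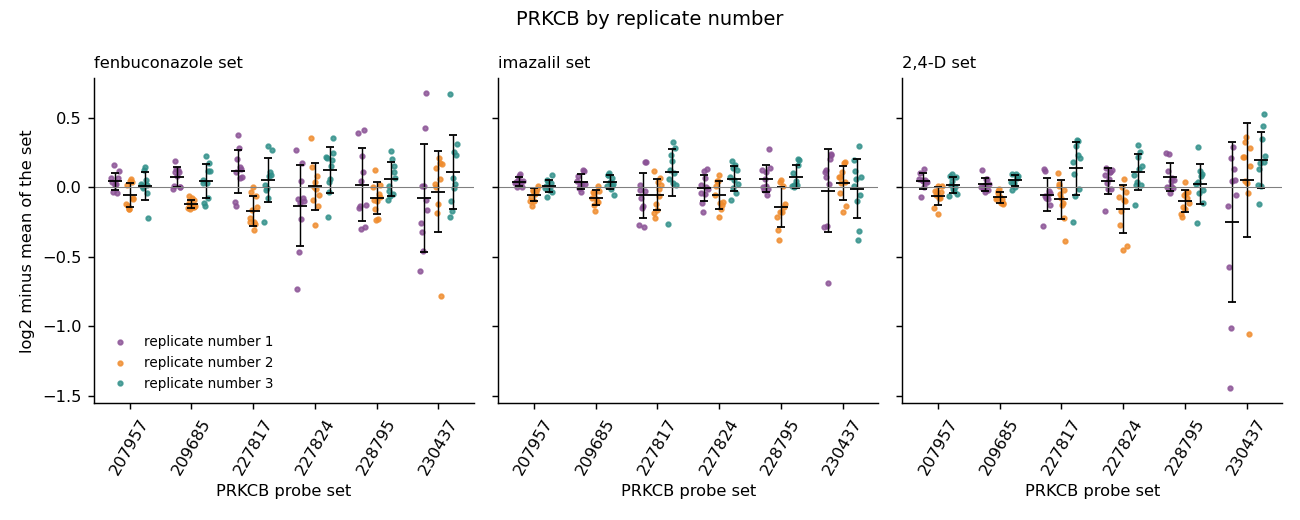
Log2 level of 6 PRKCB probe sets minus the mean of the set (vertical axis), by replicate number, with 10 arrays per number and bars giving mean and SD. Number 2 sits below the others for 209685 in all 3 sets and for 227817 in the fenbuconazole set, where it was lower than number 1 by 0.28.

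Some target genes moved together from array to array, differences between concentrations included. The mean of each set and replicate number was subtracted, and the lead probe sets were correlated over the 87 distinct arrays in 36 pairs, with permutation tests of 100000 resamples within set and number. The share of all gene pairs that would pass was not measured, so a count of passing pairs is not read as particular to the targets. Of the 36 pairs 10 passed after adjustment over the pairs. The highest was CAV1 with DKK2, with r = 0.70 and rho = 0.67 (permutation p = 1e-05 each, the smallest that these permutations can give, adjusted 0.00018 each). Leaving out the 2 arrays farthest from the median gave r = 0.66, and within the fenbuconazole, imazalil and 2,4-D sets r was 0.83, 0.55 and 0.46. DKK2 and SOX2 had r = 0.66 and rho = 0.66 (permutation p = 1e-05 each, adjusted 0.00018 each), 0.62 without the 2 farthest arrays, and 0.69, 0.51 and 0.80 within the sets. CAV1 and SOX2 had r = 0.53 and rho = 0.51 (permutation p = 2e-05 each, adjusted 0.00024 each), 0.48 without the 2 farthest arrays, and 0.62, 0.36 and 0.45 within the sets. DKK2, CAV1 and SOX2 were thus positively correlated within every set, CAV1 and SOX2 least in the imazalil set. The mean of each concentration within a set was then removed as well, an alternative chosen after seeing the data. It gave r of 0.74 for CAV1 with DKK2, 0.60 for DKK2 with SOX2 and 0.46 for CAV1 with SOX2. Shuffling within set and number did not keep the concentration means removed. That makes the permutation p-values too small, so none is given for this alternative.

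Many other probe sets reached such values on these arrays. An r with DKK2 of at least 0.70 was reached by 325 of the 54612 other probe sets (0.595%), and of at least 0.66 by 539 (0.987%). With CAV1, 213 (0.39%) reached 0.70 and 1404 (2.57%) reached 0.53. With SOX2, 66 (0.121%) reached 0.66 and 784 (1.44%) reached 0.53. The correlation was seen in the lead probe sets and not in the others of these genes. The second probe set of CAV1, 203065_PM_s_at, which lay at percentile 99.7 in DMSO in each set, had r = 0.09 with the DKK2 lead, the other SOX2 probe sets had r from -0.17 to 0.12, and the second DKK2 probe set had r = -0.07. The difference between the 3′ and 5′ control probe sets of ACTB and GAPDH, a sign of RNA integrity and labelling, moved along for 4 of 18 relations. It correlated with SOX2 at r = 0.43 and rho = 0.45 for ACTB (permutation p = 2e-05 and 3e-05, adjusted 0.00036 and 0.00054), with r = 0.43 without the 2 farthest arrays and 0.54, 0.15 and 0.31 within the fenbuconazole, imazalil and 2,4-D sets. The GAPDH difference had r = 0.31 with SOX2 and 0.32 with DKK2 (adjusted permutation p = 0.0276 each), and the ACTB difference had r = 0.31 with PRKCB (adjusted permutation p = 0.0362), which was 0.19 without the 2 farthest arrays. The rho of these last 3 relations, 0.28, 0.27 and 0.24, did not pass (adjusted permutation p = 0.0731, 0.078 and 0.131). Its part in the correlations was not tested.

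**Figure D5:**
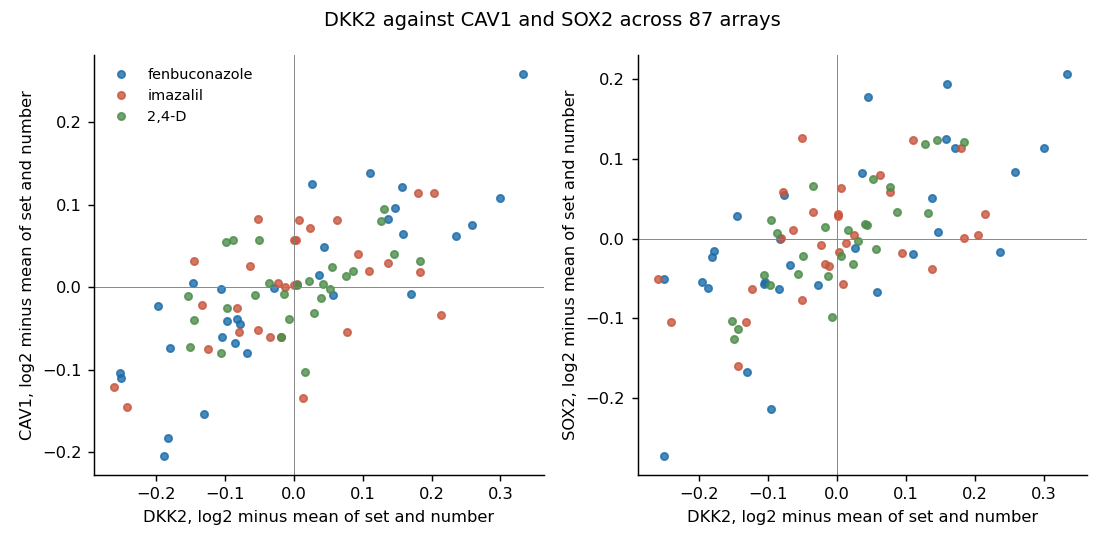
CAV1 (left) and SOX2 (right) against DKK2 over 87 arrays, each as log2 level minus the mean of its set and replicate number, coloured by chemical. The points rise together in both panels, with r = 0.70 for CAV1 and 0.66 for SOX2.

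The other 7 pairs of lead probe sets that passed were weaker, and other probe sets of these genes need not follow. The other BCL11B probe sets had r = -0.25 and 0.004 with the DKK2 lead, and those of PRKCB at most 0.008 with their own lead. BCL11B ran against DKK2 (r = -0.43) and PRKCB (-0.33) and with NKX2-2 (0.35), PRKCB ran with CAV1 (0.42) and DKK2 (0.40) and against NKX2-2 (-0.39), and NKX2-2 ran with PPP1R1A (0.32). Their adjusted permutation p lay between 0.00387 and 0.0389 for r and between 0.00108 and 0.0397 for rho, whose values ran from -0.43 to 0.38, and without the 2 farthest arrays r ran from -0.36 to 0.41. The relation of CAV1 and PRKCB did not hold in every set, with r = 0.69 in the fenbuconazole set but -0.00 in the imazalil set and 0.02 in the 2,4-D set. That of DKK2 and PRKCB gave 0.63, -0.07 and 0.24, and that of BCL11B and NKX2-2 gave 0.46, 0.00 and 0.36. For BCL11B and DKK2 it was -0.43, -0.59 and -0.20, for BCL11B and PRKCB -0.38, -0.07 and -0.35, for NKX2-2 and PRKCB -0.54, -0.12 and -0.22, and for NKX2-2 and PPP1R1A 0.25, 0.56 and 0.25. STEAP1 and GLI1 were in none of the 10 pairs, though NKX2-2 and STEAP1 passed by rho (0.31, adjusted permutation p = 0.0221) and not by r (0.26, adjusted permutation p = 0.0517). The r of NKX2-2 and PPP1R1A was 0.07 once concentration means were removed.

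The genes most like each member by the same measure over 87 arrays, as a description, were PTPN13 (r = 0.87) and SSB (0.85) for DKK2, USP16 (0.86) and SMC3 (0.86) for BCL11B, LAMB1 (0.81) and TCAF1 (0.81) for CAV1, PDIA6 (0.73) and TMX1 (0.73) for SOX2, DCTN4 (0.67) and RALGAPA1 (0.67) for PRKCB, EWSR1 (0.61) and FCGRT (0.55) for PPP1R1A, DBI (0.53) and FTL (0.52) for NKX2-2, and SCRIB (0.51) for STEAP1. No gene reached 0.5 with GLI1. PTPN13 and FCGRT are themselves on the list of other genes that the fusion activates. The gene lists were chosen with earlier results of these data known. How often the nearest genes of any probe set fall on this list was not measured, so the match is a description only.

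That list held 30 further activated targets, of which 29 were measured. None passed at 10 µM, over all concentrations or along the trend in any chemical. At 10 µM 16, 17 and 14 of the 29 were higher with fenbuconazole, imazalil and 2,4-D, with medians of 0.02, 0.03 and -0.00, beside -0.00, 0.00 and -0.01 over all genes. CCND1, the G1 cyclin, differed from DMSO by -0.01, -0.01 and -0.05, EZH2, the methyltransferase of Polycomb complex PRC2, by -0.01, -0.02 and -0.00, and LIPI, a membrane-associated lipase, by 0.02, 0.11 and 0.08 in the same order. Between replicate numbers 2, 4 and 5 of the 29 passed in the fenbuconazole, imazalil and 2,4-D sets, where 0.837%, 2.13% and 3.63% of all probe sets did. These were CCK, a peptide hormone, and ID2, an inhibitor of helix-loop-helix factors, in all 3 sets, XG, a cell surface antigen, in the imazalil and 2,4-D sets, UPP1, uridine phosphorylase, in the imazalil set, and AURKB, a mitotic kinase, and ABHD6, a monoacylglycerol hydrolase, in the 2,4-D set. CCK was lower in number 2 than in number 1 by 0.30, 0.39 and 0.42 in the fenbuconazole, imazalil and 2,4-D sets (adjusted p = 0.00056, 0.00111 and 7.92e-06 in limma). The fusion's own partners and CD99 also gave 0 calls, with differences at 10 µM of 0.10, 0.01 and -0.06 for EWSR1, 0.04, -0.02 and 0.04 for FLI1 and 0.04, 0.08 and 0.02 for CD99.

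The pathways around single members gave 0 calls at 10 µM as well. Of 9 measured Hedgehog genes 6, 3 and 4 were higher with fenbuconazole, imazalil and 2,4-D (medians 0.07, -0.05 and -0.00), and PTCH1, the Hedgehog receptor and a GLI1 target, differed from DMSO by -0.22 with fenbuconazole (adjusted p = 0.762 in limma), 0.06 with imazalil and -0.01 with 2,4-D. Beside CAV1, of the 7 caveolar genes 5, 4 and 4 were higher (medians 0.02, 0.01 and 0.01), with CAV2, the partner of CAV1, at 0.02, 0.08 and 0.01 and CAVIN1, a coat protein of caveolae, at -0.08, -0.04 and 0.07 for fenbuconazole, imazalil and 2,4-D. Of the 9 Wnt antagonists and DKK2 receptors 7, 4 and 4 were higher (medians 0.12, -0.05 and -0.04), and of the 8 other genes of the protein kinase C list 2, 6 and 4 (medians -0.06, 0.07 and 0.01). Between replicate numbers, DKK1 (adjusted p = 0.00707 in limma) and DKK3 (0.0123), both secreted Wnt modulators like DKK2, passed in the imazalil set, and KREMEN1 (0.0100), a DKK receptor, in the 2,4-D set. Among the markers of other cells GATA3, a transcription factor of luminal breast cells, passed between numbers in the imazalil (adjusted p = 0.00071 in limma) and 2,4-D sets (0.0101). Of all probe sets 2.13% passed between numbers in the imazalil set and 3.63% in the 2,4-D set.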

How the data were processed

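The authors deposited log2 levels per probe set, made by robust multi-array averaging (RMA) in Partek separately for the 30 columns of each chemical (versions not given in the sources used here). Perfect-match HT HG-U133+ PM arrays were used on total RNA. Background, quantile normalization and summarization were thus fixed within a set, and a level has no meaning across sets. The 54715 probe sets lost 102 control probe sets, which left 54613. In the platform annotation 40914 had 1 gene symbol, 864 several and 12835 none, and only those with 1 symbol were named. Groups, concentrations and replicate numbers came from the labels.

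On the deposited values, limma (version 3.58.1, run under R 4.3.3, tables read with data.table, version 1.17.8) fitted lmFit, contrasts.fit and eBayes per chemical over 30 columns, testing 9 concentrations against DMSO, singly and jointly by the moderated F statistic, a slope on log10 concentration over 27 treated columns, and a test between replicate numbers with concentration in the model. Pairs of chemicals were fitted over all 90 columns. The limma p-values were adjusted by Benjamini-Hochberg over all probe sets, with a threshold of 0.05, and intervals are at 95%. Permutation p-values were adjusted by the same method over the 36 member pairs or over the 18 relations with the control differences. A limited number of arrays per group, 3, sets the precision. Where the numbers do not stand for separate cultures, p-values measure only the spread between these arrays. Correlations used numpy 2.4.6, pandas 2.3.3 and Python 3.11.15, and figures matplotlib 3.10.9. The fits were tested on simulated data.

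The members and gene lists were chosen with earlier results of these data known. The rule for named genes took every member with all its probe sets, EWSR1, FLI1, CD99, CCND1, EZH2, LIPI, PTCH1, CAV2 and CAVIN1, up to 5 genes of another list that passed in a comparison, and the 2 genes most like each member where r was at least 0.5. Alternatives were a replicate block, omission of dim probe sets, eBayes with trend and robust settings, a second quantile normalization, omission of each replicate number, the other 8 concentrations as reference and the other probe sets of a gene.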

Additional observations from a re-analysis of the deposited data

How the results depend on the processing

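Of 54 values of the lead probe sets (27 differences from DMSO at 10 µM and 27 slopes), none passed under any alternative (smallest adjusted p = 0.503 in limma), and the 12 counts of members called at 10 µM, over all concentrations, along the trend and between chemicals remained 0 under all alternatives run. The main fits against DMSO did not pair arrays by replicate number. Same-numbered arrays had a mean correlation of 0.0420, 0.0689 and 0.0781 in the fenbuconazole, imazalil and 2,4-D sets. The lowest was -0.138, -0.0947 and -0.145, but 24, 28 and 30 of 30 arrays correlated best with their own number. The p-values of the main fits leave this likeness out. With the replicate block all 12 counts stayed at 0 and all 54 values kept their sign (smallest adjusted p = 0.638). The imazalil and 2,4-D pair also gave 0 when the shared DMSO arrays were counted once, an alternative chosen after seeing the data.

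The counts between replicate numbers in the fenbuconazole, imazalil and 2,4-D sets were 2, 4 and 7 with dim probe sets left out, which kept 20 of the 22 probe sets, and 2, 4 and 7 with the trend and robust settings, and without 1 number at a time they ran from 0 to 1, from 0 to 1 and from 0 to 0. Dropping a number leaves fewer arrays, and the cause of the other shifts was not tested. Signs turned only for small values, the largest of them 0.09 in the main analysis when the other probe sets of a gene are set aside. With the other 8 concentrations as reference, the difference at 10 µM was -0.024 for CAV1 with 2,4-D, -0.027 for CAV1 with fenbuconazole, -0.0073 for CAV1 with imazalil, -0.014 for NKX2-2 with 2,4-D, 0.012 for PPP1R1A with 2,4-D and -0.0041 for PRKCB with 2,4-D, and after a second quantile normalization the slope of CAV1 with fenbuconazole was -4.33e-05. Other probe sets of a gene gave the opposite sign to its lead, namely -0.18 for BCL11B 224310_PM_s_at with fenbuconazole, -0.025 for BCL11B 219528_PM_s_at with imazalil, -0.19 for BCL11B 224310_PM_s_at with imazalil, 0.021 for DKK2 224199_PM_at with imazalil, -0.087 for PRKCB 227824_PM_at with 2,4-D, -0.084 for PRKCB 228795_PM_at with 2,4-D, 0.039 for PRKCB 209685_PM_s_at with fenbuconazole, 0.27 for PRKCB 227817_PM_at with fenbuconazole, 0.37 for PRKCB 230437_PM_s_at with fenbuconazole, -0.010 for PRKCB 209685_PM_s_at with imazalil, -0.046 for PRKCB 227824_PM_at with imazalil, 0.064 for SOX2 213721_PM_at with 2,4-D, 0.015 for SOX2 213722_PM_at with 2,4-D, 0.25 for SOX2 214178_PM_s_at with 2,4-D, 0.032 for SOX2 213721_PM_at with fenbuconazole, 0.13 for SOX2 213722_PM_at with fenbuconazole, 0.23 for SOX2 214178_PM_s_at with fenbuconazole, 0.13 for SOX2 213722_PM_at with imazalil and 0.082 for SOX2 214178_PM_s_at with imazalil. Without each replicate number in turn, differences that changed sign ran from -0.10 to 0.034 for BCL11B with 2,4-D, -0.038 to 0.12 for BCL11B with imazalil, -0.012 to 0.042 for CAV1 with 2,4-D, -0.028 to 0.11 for CAV1 with fenbuconazole, -0.015 to 0.10 for CAV1 with imazalil, -0.18 to 0.036 for DKK2 with 2,4-D, -0.11 to 0.29 for GLI1 with 2,4-D, -0.14 to 0.0099 for GLI1 with fenbuconazole, -0.029 to 0.020 for NKX2-2 with 2,4-D, -0.062 to 0.022 for PPP1R1A with 2,4-D, -0.012 to 0.11 for PPP1R1A with imazalil, -0.00019 to 0.088 for PRKCB with 2,4-D, -0.099 to 0.049 for PRKCB with fenbuconazole, -0.082 to 0.0079 for SOX2 with 2,4-D, -0.044 to 0.034 for SOX2 with fenbuconazole and -0.12 to 0.053 for SOX2 with imazalil. Slopes that changed sign ran from -0.011 to 0.0030 for CAV1 with 2,4-D, -0.0057 to 0.011 for CAV1 with fenbuconazole, -0.0088 to 0.026 for DKK2 with 2,4-D, -0.018 to 0.015 for DKK2 with fenbuconazole, -0.054 to 0.013 for GLI1 with fenbuconazole, -0.024 to 0.013 for GLI1 with imazalil, -0.016 to 0.012 for PPP1R1A with imazalil, -0.0093 to 0.0049 for PRKCB with 2,4-D, -0.015 to 0.010 for PRKCB with fenbuconazole, -0.017 to 0.012 for SOX2 with 2,4-D, -0.0032 to 0.011 for SOX2 with fenbuconazole, -0.00064 to 0.033 for STEAP1 with fenbuconazole and -0.020 to 0.0078 for STEAP1 with imazalil. The cause of these reversals was not tested.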
